A study of Mus musculus with 6 samples.

Results

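Adrenergic signalling in the left ventricle was described through 9 genes for receptors, G protein subunits and the enzymes next to them, chosen by gene symbol. Of these, 5 were each measured by 1 Affymetrix probe set that carries the gene's symbol alone. They were Adra1b, a receptor, Gnaq and Gna11, which encode G protein alpha subunits, and the enzyme genes Plcb1 and Adcy5. These are 5 of 24898 probe sets tested and of 35556 in all. Gnas shares its probe set with another gene symbol and was therefore not used. Adra1a, Adrb1 and Adrbk1 (now Grk2) were not analysed here, so that 1 receptor stands for the adrenergic receptors and no beta receptor is described. The arrays hold total RNA from left ventricle of male mice on a C57BL/6 background. Of the 6 samples, 3 came from MURC knockout hearts, labelled as 11, 11 and 13 weeks old, and 3 from wild-type hearts, labelled as 13, 13 and 12 weeks old. MURC, now called cavin-4, is found in muscle cells and belongs to the coat of caveolae, pits in the cell membrane, and the study asked which transcripts differ in the heart without it. The labels do not say how the gene was deleted. Samples of different age within a genotype came from different animals, but the labels do not say whether those of the same age did. The p-values reflect the spread among these 6 samples, part of which may be technical.

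Noradrenaline from sympathetic nerves and adrenaline from the blood act on heart muscle through receptors of several classes. Alpha-1 receptors couple to Gq, which activates phospholipase C beta to release inositol trisphosphate and diacylglycerol, and this branch is known for its part in the growth of heart muscle cells. Beta receptors couple to Gs, which activates adenylyl cyclase and so protein kinase A, and this branch sets the rate and force of the beat. Receptors, G proteins and cyclases of these branches have been found in caveolae.

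The values below are log2 signals as the authors deposited them, so that a difference of 1 is a doubling of the signal. Signals of different probe sets depend on their probes and give no order of abundance between genes. Differences are knockout minus wild type, from a limma fit over all 24898 probe sets, with p-values adjusted over all of them by the Benjamini-Hochberg method. Cavin4, the targeted gene, measured 5.38 to 5.74 in the knockout against 8.07 to 8.75 in the wild type (limma adjusted p = 0.012), so every array followed its label, and no other probe set passed the adjusted threshold of 0.05. The 8 heart muscle markers, among them Myh6, Tnnt2 and Ryr2, lay between the 99.4th and 99.9th percentile of their array, and their summed linear signal was 45940 to 46673 in knockout arrays, against 45158 to 46675 in wild-type arrays. Knockout replicate 2 stood apart in genes of atrial muscle. Its signal of the atrial light chain Myl4 was 8.67, against 5.41 to 5.61 on the other 5 arrays, and that of Myl7 was 7.22 against 3.61 to 4.11. Without that array, a choice made after these values were seen, the log2 differences were 0.25 for Plcb1 (limma unadjusted p = 0.0828), -0.20 for Adra1b, -0.12 for Gnaq, -0.02 for Gna11 and -0.05 for Adcy5.

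None of the 5 genes passed the adjusted threshold, as 0.00402% of all probe sets did. Plcb1 measured higher in all 3 knockout arrays than in any wild-type array, by 1.19-fold, and was the 1 of the 5 with an unadjusted p under 0.05. Adra1b measured lower in the knockout with a log2 difference of -0.18, and of -0.09 without wild-type replicate 1. Gnaq, Gna11 and Adcy5 differed by at most 0.083 and overlapped between genotypes. The share of all probe sets with an unadjusted p under 0.05 was 13.7%, made up of 4.71% higher and 9.02% lower in the knockout, and at 5 genes a count of 1 cannot be told from that background. Of the 5, 4 measured below the wild type, as did 59.0% of all probe sets. The median difference of the 5 was -0.04, the same as the median of -0.04 over all probe sets tested.

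**Figure D1:**
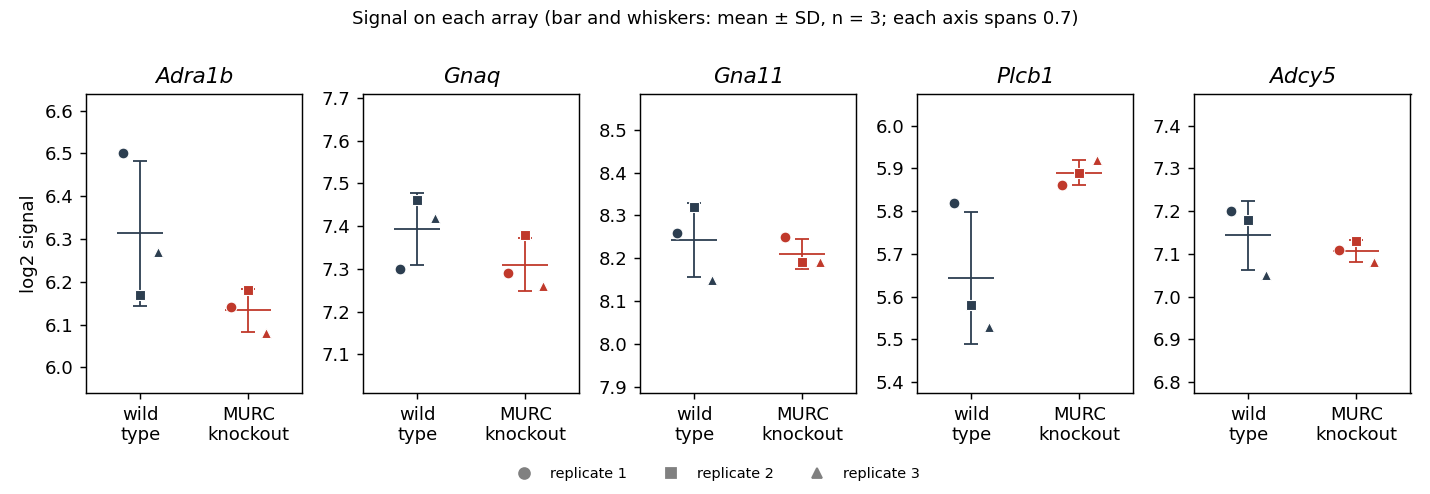
Log2 signal of the 5 genes on each of the 6 arrays, with wild type in blue and MURC knockout in red, symbols for replicate numbers, and mean ± SD over 3 arrays as bar and whiskers. In the Plcb1 panel the knockout arrays, at 5.86 to 5.92, lie above the wild-type arrays, at 5.53 to 5.82, and in the other panels the genotypes overlap.

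Adra1b and Plcb1 showed the largest differences of the 5 genes, in opposite directions, and the bases before their annotated starts are printed as the annotated promoters of the genes. The sequences are RefSeq's for GRCm38.p6, read 5′ to 3′ on the gene's strand, 237 bases each, which ends short of the annotated gene. Capitals mark the GC box GGGCGG, a site of Sp1-family factors, searched on both strands as GGGCGG and CCGCCC.
Adra1b, chr11:43901251-43901487, minus strand: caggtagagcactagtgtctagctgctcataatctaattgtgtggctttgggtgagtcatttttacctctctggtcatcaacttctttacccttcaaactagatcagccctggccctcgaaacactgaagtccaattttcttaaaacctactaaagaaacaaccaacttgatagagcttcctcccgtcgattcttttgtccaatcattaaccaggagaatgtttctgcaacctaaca
Plcb1, chr2:134785914-134786150, plus strand: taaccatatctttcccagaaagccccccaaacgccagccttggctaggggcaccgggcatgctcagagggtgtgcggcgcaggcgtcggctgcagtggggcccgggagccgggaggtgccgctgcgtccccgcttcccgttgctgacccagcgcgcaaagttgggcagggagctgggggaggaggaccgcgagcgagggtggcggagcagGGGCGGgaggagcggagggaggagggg
The Plcb1 window is 71.3% G and C with 20 CpG dinucleotides and holds 1 GC box, a motif found in 30.89% of 32851 mouse promoter windows of this length. The Adra1b window is 41.8% G and C with 3 CpG dinucleotides and holds none, and the median window is 51.9% G and C. Neither window holds the letters TGACGTCA of the full cAMP response element, found in 1.4% of windows, or TATAAA, found in 11.99%. A match on either strand was counted. RefSeq gives Adra1b a second start further into the gene, and a probe set that reads the gene does not tell which start was used.

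Adra1b, the receptor, encodes the alpha-1B subtype, which couples to Gq. Its signal was 6.14, 6.18 and 6.08 on the knockout arrays, against 6.50, 6.17 and 6.27 on the wild-type arrays. The genotypes overlapped by 1 pair of arrays, since knockout replicate 2 lay just above wild-type replicate 2, and wild-type replicate 1 stood above the rest. Its mean was 6.13 ± 0.05 in knockout and 6.31 ± 0.17 in wild-type hearts (SD, n = 3), a log2 difference of -0.18 (SE 0.10, limma adjusted p = 0.492), with a 95% interval from -0.41 to 0.05. As a ratio to wild type this is 0.883, with an interval from 0.75 to 1.04. Without wild-type replicate 1 the difference was -0.09, and without wild-type replicate 2 it was -0.25. That last setting was the only 1 of 15 in which Adra1b had an unadjusted p under 0.05 (limma unadjusted p = 0.0477, adjusted p = 0.397). By rank within an array, its signal stood between the 70.6th and 71.7th percentiles in knockout samples, against 71.5th to 74.9th in wild-type samples.

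The genes whose profile over the 6 arrays was most like that of Adra1b were Cd36, the fatty acid transporter, Ywhab, a 14-3-3 protein gene, and Nfs1, the cysteine desulfurase of iron-sulfur cluster assembly. Their Pearson correlations with Adra1b were 0.999, 0.999 and 0.996 over 6 arrays. All 3 share its high wild-type replicate 1, where Cd36 measured 11.77 against 11.68 to 11.72 on the other arrays. The median signal of that whole array was also the highest, at 4.71, against 4.6 to 4.65 on the other arrays. The part of this shift in the profiles was not tested. Of 15297 named genes, 132 had a correlation over 0.95, and the SD of Cd36 over the arrays was only 0.03 on the log2 scale, against 0.15 for Adra1b. These arrays share 1 table, how they were scaled is not given, and no test was attached to the correlations.

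Gnaq and Gna11 encode the closely related alpha subunits that carry alpha-1 receptor signals to phospholipase C. Gnaq measured 7.29, 7.38 and 7.26 on knockout arrays, against 7.30, 7.46 and 7.42 on wild-type arrays. Wild-type replicate 1 lay among the knockout arrays, and the other wild-type arrays lay above all of them. The log2 difference of Gnaq was -0.08 (SE 0.07, limma adjusted p = 0.682), with a 95% interval from -0.25 to 0.09. Gna11 measured 8.25, 8.19 and 8.19 on knockout arrays and 8.26, 8.32 and 8.15 on wild-type arrays, where the wild-type arrays spanned those of the knockout. Its log2 difference was -0.03 (SE 0.07, limma adjusted p = 0.873), with a 95% interval from -0.19 to 0.12, and it had the other sign after quantile normalization, at 0.0078.

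Because a shift of a whole array cancels within it, the gap between Gnaq and Gna11 was also compared array by array. Gnaq minus Gna11 was -0.96, -0.81 and -0.93 on knockout arrays and -0.96, -0.86 and -0.73 on wild-type arrays. The means were -0.90 ± 0.08 and -0.85 ± 0.12 (SD, n = 3), and the groups overlapped (two-sided exact permutation test, p = 0.7, where 3 arrays against 3 cannot go below 0.1). It was the 1 pair of 5 planned whose members were both measured, and without wild-type replicate 3 the small difference turned from -0.05 to 0.01.

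Plcb1 encodes a phospholipase C beta enzyme that Gq activates. It measured 5.86, 5.89 and 5.92 on knockout arrays and 5.82, 5.58 and 5.53 on wild-type arrays. The knockout arrays lay close together and above all 3 wild-type arrays, of which replicate 1 came within 0.04 of the lowest knockout array. The means were 5.89 ± 0.03 and 5.64 ± 0.16 (SD, n = 3), a log2 difference of 0.25 (SE 0.10), with a limma unadjusted p of 0.0384 and an adjusted p of 0.333. The ratio to wild type was 1.19, with a 95% interval from 1.01 to 1.39. Non-overlapping groups were found at 19.0% of all probe sets, at 6.12% with the knockout higher and at 12.9% with it lower. By unadjusted p Plcb1 ranked 2869th, and 82.5% of probe sets had a smaller absolute difference. Over 15 other settings its log2 difference stayed between 0.19 and 0.34, with an unadjusted p under 0.05 in 9 of them, but in only 1 of the 6 that left out an array, and an adjusted p of at least 0.2. It was 0.30 with age as a covariate and 0.34 without wild-type replicate 1.

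Adcy5 encodes 1 of the main adenylyl cyclases of heart muscle, which Gs activates and Gi inhibits. It measured 7.11, 7.13 and 7.08 on knockout arrays and 7.20, 7.18 and 7.05 on wild-type arrays. The knockout arrays lay inside the wild-type range. The log2 difference was -0.04 (SE 0.07, limma adjusted p = 0.868), with a 95% interval from -0.20 to 0.13, or a ratio between 0.871 and 1.09. In all 5 genes the SD was larger over the wild-type than over the knockout arrays, a pattern seen in 57.5% of all probe sets tested.

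**Figure D2:**
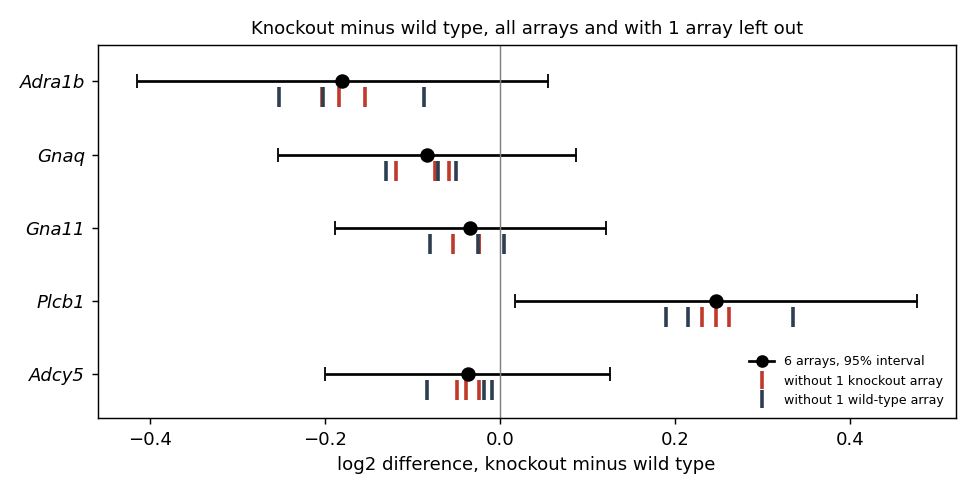
Log2 difference of each gene, knockout minus wild type, with its 95% interval over 6 arrays (black), and the same difference with 1 knockout array (red) or 1 wild-type array (blue) left out. The interval of Plcb1, from 0.02 to 0.48, lies above 0, those of the other 4 genes include 0, and leaving out a wild-type array moved Adra1b from -0.25 to -0.09.

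The pathway around these genes was read from lists of receptors, G protein subunits, receptor kinases and cyclases. Other lists held phospholipase C and genes downstream of it, protein kinase A genes, phosphodiesterases and RGS genes. Of 91 further genes, 83 had a probe set with 1 symbol and 78 were bright enough to be tested. None passed the adjusted threshold. At an unadjusted p under 0.05 there were 7, or 8.97%, against 13.7% of all probe sets, and all 7 were lower in the knockout. Together with Plcb1 this gave 1 higher and 7 lower as deposited, 5 higher and 4 lower after quantile normalization, and 2 higher and 5 lower after median centring. The median difference of the 78 was -0.03. Of the 78, 11 were lower in the knockout without overlap and 2 higher, against 12.9% and 6.12% of all probe sets.

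The alpha subunits held the differences with the smallest p. Gna13, whose protein couples receptors to RhoA, measured 7.68, 7.69 and 7.58 on knockout arrays and 8.01, 7.91 and 7.99 on wild-type arrays. The groups did not overlap, at a log2 difference of -0.32 (SE 0.06, limma unadjusted p = 0.00142, adjusted p = 0.109). Gna12, its close relative, measured 9.21, 9.18 and 9.01 against 9.33, 9.38 and 9.43, again without overlap, a log2 difference of -0.25 (SE 0.07, limma unadjusted p = 0.0089, adjusted p = 0.199). Gnai2, which encodes an inhibitory alpha subunit that lowers cyclase activity, measured 9.89, 9.92 and 9.79 against 10.24, 10.20 and 10.05, also without overlap (log2 difference -0.30, SE 0.07, limma unadjusted p = 0.0032, adjusted p = 0.134). These 3 had an unadjusted p under 0.05 in all 15 other settings. Those settings refit the same arrays by which the genes were picked for a small p. Non-overlap with the knockout lower was found at 12.9% of all probe sets, without such a choice. Their adjusted p ran from 0.0542 to 0.272 for Gna13, 0.12 to 0.442 for Gna12 and 0.0706 to 0.356 for Gnai2.

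All 6 Gq and G12 class alpha subunits, Gnaq and Gna11 included, measured below the wild type, with a median log2 difference of -0.165. Gna14 was at -0.28 without overlap. Below-zero differences made up 59.0% of all probe sets. Of the 6, 5 were below with age in the model, after quantile normalization, and when any 1 of knockout replicate 2 and the wild-type replicates 1 and 2 was left out. Of the inhibitory subunits beside Gnai2, Gnai3 measured -0.10, Gnaz -0.05, Gnao1 0.10 and Gnai1 0.20, and all of these overlapped between genotypes. Of 13 beta and gamma subunits tested, 9 were lower and 4 higher with none at an unadjusted p under 0.05, Gnb1 at -0.14 and Gng7 at -0.23 having the smallest p values.

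**Figure D3:**
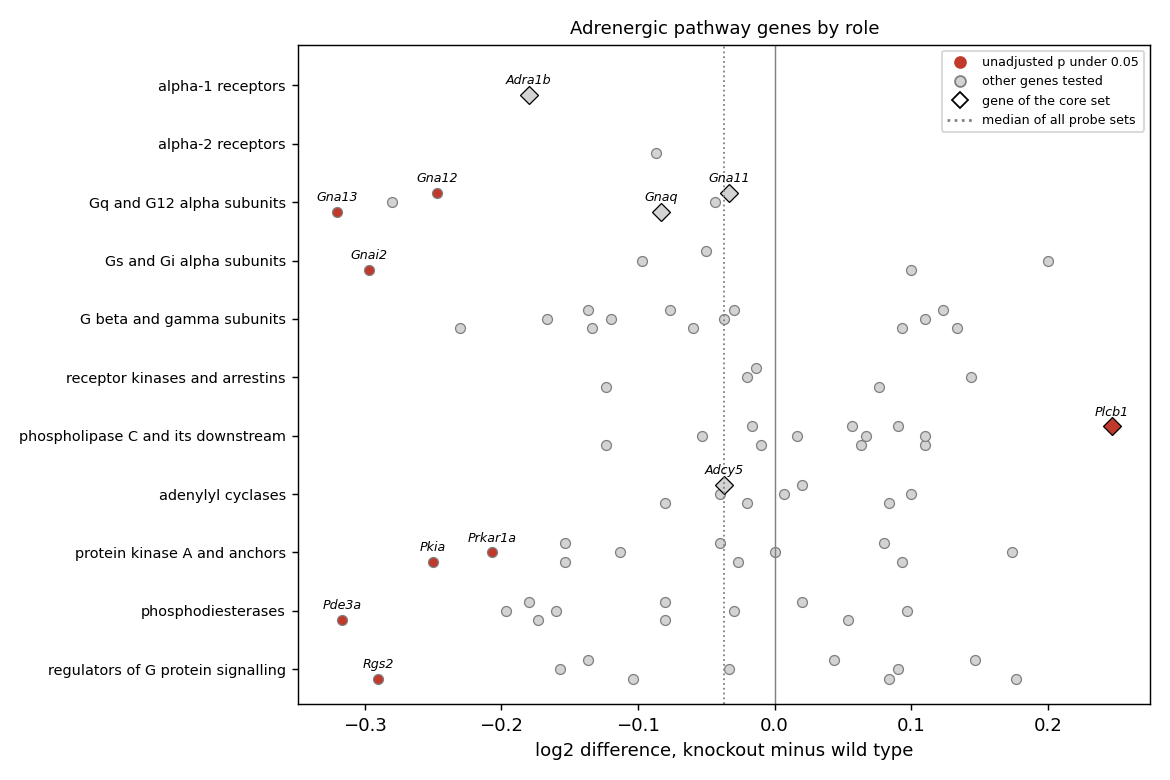
Log2 difference, knockout minus wild type, of every tested gene of the pathway, in rows by role, with genes at an unadjusted p under 0.05 in red, the core genes as diamonds, and the median of all probe sets as a dotted line at -0.04. The 7 red circles lie between -0.32 and -0.21, and Plcb1 is the red diamond at 0.25.

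On the cAMP side, Pkia and Prkar1a, which encode a peptide inhibitor and a regulatory subunit of protein kinase A, both of which hold back its catalytic subunit, measured lower, at -0.25 (limma unadjusted p = 0.0107, adjusted p = 0.214) and -0.21 (unadjusted p = 0.0463, adjusted p = 0.356). Pkia measured 9.23, 9.18 and 9.10 in the knockout against 9.50, 9.47 and 9.29 in the wild type, without overlap. Non-overlap with the knockout lower was found at 12.9% of all probe sets. The Prkar1a groups met at wild-type replicate 3. Prkacb, which encodes a catalytic subunit, also measured lower without overlap, at -0.15 (unadjusted p = 0.0512), and the regulatory subunit gene Prkar2a measured 0.08 with overlapping arrays. Pde3a, a phosphodiesterase gene of heart muscle, measured 7.93, 8.15 and 7.68 against 8.28, 8.36 and 8.07, a log2 difference of -0.32 with overlapping arrays (limma unadjusted p = 0.0427, adjusted p = 0.346). Without knockout replicate 3 it was -0.20 for Pde3a (unadjusted p = 0.132), and without wild-type replicate 2 it was -0.14 for Prkar1a (unadjusted p = 0.159). Among the other 7 cyclases tested beside Adcy5, 4 measured higher and 3 lower, all between -0.08 and 0.10, with Adcy6, the other main cyclase of heart muscle, at 0.01. Adcy4 and Adcy1 had the smallest p values among them, at -0.08 and 0.10.

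Rgs2, which encodes a protein that speeds the shut-off of Gq, measured 6.16, 5.90 and 6.27 on knockout arrays and 6.35, 6.40 and 6.45 on wild-type arrays. The groups did not overlap, as at 12.9% of all probe sets with the knockout lower. The log2 difference was -0.29 (SE 0.11, limma unadjusted p = 0.0282, adjusted p = 0.305). Without knockout replicate 2 it was -0.185 (unadjusted p = 0.0854). Of the 15 other settings, an unadjusted p under 0.05 was kept in 15 for Pkia, 10 for Rgs2, 8 for Pde3a and 6 for Prkar1a. Among receptor kinases and arrestins, Grk5 measured 0.14 higher with overlap and Adrbk2, now Grk3, -0.12 without overlap. Arrb1 and Arrb2, the arrestins that bind phosphorylated receptors, measured -0.01 and 0.08. None of the 5 tested had an unadjusted p under 0.05 as deposited. Grk5 had one in 2 of the 15 other settings. These were quantile normalization, at 0.18 (limma unadjusted p = 0.0402), and leaving out knockout replicate 3, at 0.20 (limma unadjusted p = 0.0392). Phospholipase C, inositol trisphosphate receptor, diacylglycerol kinase and protein kinase genes tested beside Plcb1 numbered 11, of which 7 measured higher and 4 lower. Prkca was at -0.12 without overlap and Plcb3 at 0.11 with overlap, and none had an unadjusted p under 0.05. Adra2c, an alpha-2 receptor gene, was dim, at 3.86 against 3.95, and differed by -0.09.

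**Figure D4:**
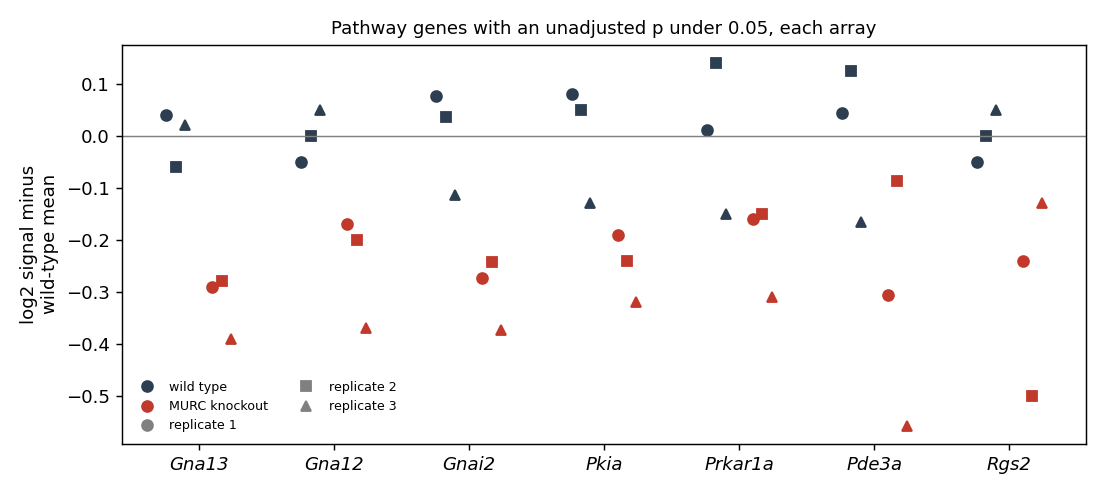
Log2 signal minus the wild-type mean on each array for the 7 pathway genes beside Plcb1 with an unadjusted p under 0.05 (wild type in blue, knockout in red, symbols for replicates). Gna13, Gna12, Gnai2, Pkia and Rgs2, picked for a small p, show no overlap between genotypes. Non-overlap with the knockout lower was found at 12.9% of all probe sets. Knockout replicate 3 is the lowest array for every gene but Rgs2.

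Markers of other cell types were read beside these genes, because in bulk tissue fewer cells of a type and less RNA per cell cannot be told apart. All 7 macrophage markers measured lower in the knockout, as did 59.0% of all probe sets. Only C1qb, at -0.51, was lower without overlap, as were 12.9% of all probe sets, and only it had an unadjusted limma p under 0.05. The summed linear signal of the 7 was 839 to 946 on knockout arrays, against 934 to 1233 on wild-type arrays. Of 7 smooth muscle and pericyte markers, 4 measured higher and 3 lower. An unadjusted limma p under 0.05 was found for 3, or 42.9%, against 13.7% of all probe sets, and none passed the adjusted threshold. Myh11 and Tagln measured 0.35 and 0.42 higher without overlap (limma unadjusted p = 0.00172 and 0.0219), as did 6.12% of all probe sets. Acta2 and Cnn1 measured 0.10 and 0.16 higher. Kcnj8 measured -0.27 (limma unadjusted p = 0.0422), Pdgfrb -0.15 and Notch3 -0.05. The summed signal, which mixes these directions, ran from 1180 to 1251 on knockout arrays and from 1211 to 1335 on wild-type arrays. The 5 adipocyte markers, all dim, summed to 68.7 to 80.4 on knockout arrays, against 80.5 to 87.7 on wild-type arrays, without overlap by a narrow gap. Single probe sets did not overlap in either direction at a share of 19.0%. Of the 4 adipocyte markers bright enough to be tested, 3 measured lower and 1 higher. Among these 4, 1 did not overlap and none had an unadjusted limma p under 0.05. Of 4 atrial markers, Myl4 and Myl7 measured 1.14 and 1.21 higher with overlapping arrays, and 0.11 and 0.13 without knockout replicate 2, and the sum ran from 1829 to 3346 against 1692 to 2313. The endothelial, fibroblast, red blood cell, skeletal muscle and nerve sums overlapped as well, and Th, Dbh, Slc6a2 and the other nerve and Schwann cell markers measured lay between the 23.8th and 57.9th percentile. The part of these cell types in the values of Gna13, Gnai2, Rgs2 or Plcb1 was not tested.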

How the data were processed

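Left ventricle RNA was measured on 6 Affymetrix arrays, 3 per genotype. The authors deposited 1 table of log2 signals per probe set, and per the submitters' processing notes MAS5 was used, without its role or version. Not given in the sources used here: background correction, summarization, and how arrays were scaled. The values run from 0.46 to 13.72, a range of logarithms rather than linear signals, and were read as log2. Probe sets were named from the platform annotation, where 21789 have 1 symbol, 1621 have several and 12146 are unnamed here, and symbols were updated through RefSeq of GRCm38.p6. The fit used R 4.3.3 and limma 3.58.1 (lmFit, eBayes with trend) on probe sets with a mean at or above the 30th percentile, a log2 value of 3.45. The script was tested on simulated data. For a list gene with several probe sets the one with the highest mean was used.

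The genes named are the 9 chosen, Cavin4, pathway genes with an unadjusted p under 0.05 or otherwise the 2 of each list with the smallest p, the 3 genes most correlated with Adra1b, and markers of the lists described. Gna14, Gnai1, Gnai3, Gnao1, Gnaz, Adcy6, Prkacb, Prkar2a, Arrb1 and Arrb2 were added after their values were seen. The members, lists and tests were chosen with earlier results of these data known. Deviations of arrays with the same replicate number correlated at -0.06, 0.02 and -0.06, so the numbers were not taken to pair samples. The number of arrays limits the precision.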

Additional observations from a re-analysis of the deposited data

How the results depend on the processing

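No adrenergic gene passed the adjusted threshold in any setting, so the calls described rest on unadjusted p-values, and signal over background cannot be judged because no background values were used. Of the 5 genes, 4 kept their direction in all 15 alternatives, and Gna11 measured 0.0078 after quantile normalization and from -0.08 to 0.005 with 1 array left out, the highest without wild-type replicate 2. The count of the 5 with an unadjusted p under 0.05 was 1 in the other settings that kept all arrays, 0 with the replicate number as a block, where Plcb1 had an unadjusted limma p of 0.064, and from 0 to 1 with 1 array left out. It was 0 without any 1 of the 3 knockout replicates or wild-type replicate 3, Plcb1 without wild-type replicate 1, and Adra1b in place of Plcb1 without wild-type replicate 2. The atrial gene Nppa turned from 0.11 to -0.11 without knockout replicate 2. Pathway genes at that level, these 5 included, numbered 8, and from 7 to 10 in the other settings that kept all arrays. With 1 array left out they numbered from 5 to 8, the lowest without knockout replicate 1. The count of probe sets past the adjusted threshold was 1 as reported, 48 with a filter at the 50th percentile, 130 after quantile normalization, 105 after median centring, 34 with age as a covariate, 126 with array weights, 163 with only probe sets of 1 symbol, 0 with the replicate block, and from 0 to 11 with 1 array left out. The change of Gnaq minus Gna11 was -0.05, unchanged in value by the replicate block, and from -0.105 to 0.01 with 1 array left out. The cause of these shifts was not tested.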
